A study of Homo sapiens with 6 samples.

Results

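The metzincin proteases that cut matrix and cell surface proteins, and their inhibitors, were followed in A431, an established human line from an epidermoid carcinoma that is known for its abundant epidermal growth factor receptor (EGFR). The members were all genes whose symbol is MMP, ADAM or ADAMTS followed by a number, or TIMP1 to TIMP4, and they came to 62 of the 17687 named genes on the array. They were 22 matrix metalloproteinases (MMPs), 19 ADAMs, 18 ADAMTS proteases and 3 tissue inhibitors of metalloproteinases (TIMPs). Each member had a single probe set, so no choice between probe sets was needed. TIMP2, ADAM7 and ADAMTS7 were not analysed here.

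RNA was measured on 6 arrays, 2 for each of 3 groups, all of the same line, grown with 10% serum and then starved for 24 h. The control cells are labelled as untreated, the EGF cells received 100 ng/ml of epidermal growth factor (EGF), the ligand of EGFR, and the third group received EGF at this dose together with gefitinib, which blocks the EGFR kinase, at 10 µM. A single harvest at 30 min is stated for all cells. The RNA extraction text, which is the same for every sample, names EGF-treated cells even for the controls, and groups were taken from the source and treatment labels. The order in which gefitinib and EGF were added is not stated, and no group had gefitinib without EGF. The labels speak of biological replicates without naming separate cultures, so the p-values measure the spread between these arrays, which may be technical. Each difference below is on the log2 scale, from one group mean to another, with the standard error from limma after the ± sign (n = 2 arrays per group). A gene is called where the limma adjusted p (Benjamini-Hochberg over 21448 probe sets) lies under 0.05.

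MMPs are secreted or membrane-bound zinc proteases that cut collagens, laminins, proteoglycans and other extracellular proteins, and most are made as inactive precursors that another protease must cut. ADAMs sit in the plasma membrane, where the active ones release the outer part of other membrane proteins, and ADAM17 and ADAM10 release the EGFR ligands from their precursors. ADAMTS proteases are secreted and trim proteoglycans and procollagens, while TIMPs bind the active site of these enzymes. In keratinocytes, growth factor signals and AP-1 transcription factors are known to raise several MMP genes.

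Arrays of a group correlated at 0.991 to 0.994 across probe sets, and arrays from different groups at 0.987 or less. On single arrays 38.4% to 42.1% of transcript probe sets lay above the background limit, set on each array at the 95th percentile of its negative controls and lying between 7.14 and 7.65. All 6 measured markers of keratinocytes and this line (KRT5, KRT14, CDH1, EGFR, DSG3 and SFN) lay above it. Their linear values summed to 246100 and 247500 in the control, 348400 and 367900 with EGF, and 226400 and 231100 with EGF plus gefitinib. The 6 did not move together. SFN was called higher with EGF (1.02) and lower with gefitinib than with EGF alone (−2.09). DSG3 was called higher than the control in both treated groups (1.21 and 1.41). EGFR was called higher with gefitinib than with EGF alone (0.87) and than in the control (0.91). KRT5, KRT14 and CDH1 were not called. None of 8 leukocyte and 6 endothelial markers lay above the limit on both arrays of a group. Of 8 fibroblast markers, COL1A2 and LUM did, and COL1A1, DCN, PDGFRB, POSTN, FAP and THY1 did not. The linear values of these 8 summed to 1046 and 1116 in the control arrays, 640.5 and 518 in the EGF arrays and 767 and 567 with EGF plus gefitinib. The sum was thus lower in both treated groups, and LUM was the brightest of the 8 on every array. POSTN and FAP had higher means than the control in both treated groups (0.61 and 0.42 with EGF, neither called), and the others had lower means. The endothelial markers summed to 274.5 and 222 in the control, 130.5 and 150.2 with EGF, and 306 and 321.5 with EGF plus gefitinib. This was carried by CDH5, the one of the 6 that was called (fitted values lower with EGF by 2.22, and 2.57 higher with gefitinib than with EGF alone). CDH5 lay above the limit on 1 control array, on no EGF array and on 1 array with gefitinib, so these fitted values are not sizes of change. MMP13, MMP2, MMP14 and ADAM23 were also higher with gefitinib than with EGF alone, and MMP13 was lower with EGF. The part of these shifts in the results below was not tested.

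Most members lay below what this array can measure. A total of 11 of 62 (17.7%) lay above the background limit on both arrays of at least 1 group, against 42% of all transcript probe sets. These were MMP1, MMP2, MMP7, MMP13 and MMP14, ADAM9, ADAM10, ADAM15 and ADAM17, and TIMP1 and TIMP3. None of the 18 ADAMTS genes was among them. MMP1 qualified only through the EGF group, MMP7 through the control and EGF groups, and the other 9 in all 3 groups. The remaining 51 members lay below the limit on every array, with highest single-array values between 2.76 and 6.66, so for them only an upper bound of the level is known.

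**Figure D1:**
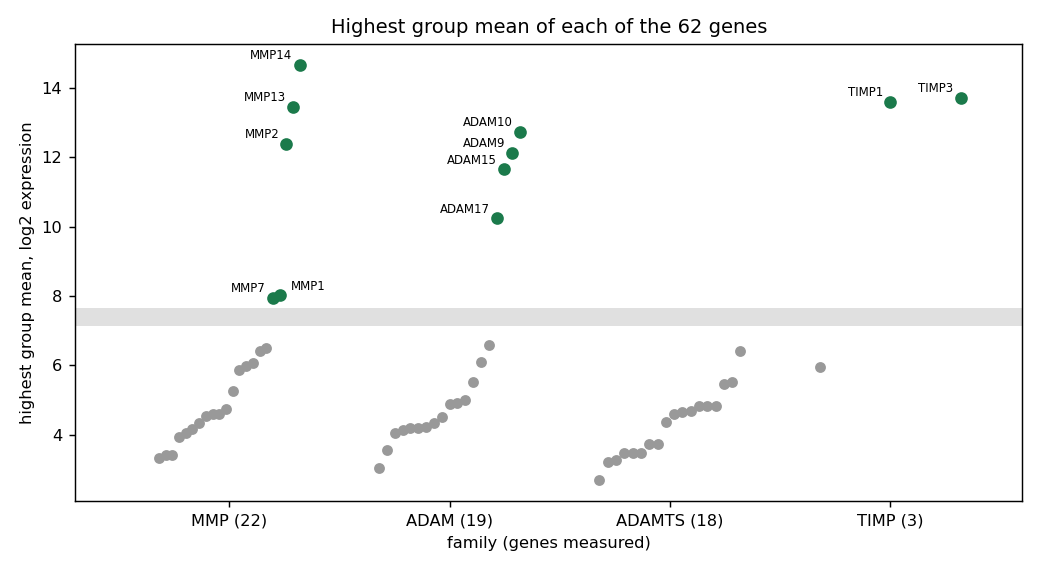
Highest of the 3 group means (log2 expression, n = 2 arrays) of each of the 62 genes, by family, with the range of the background limits as a grey band. Green points with names are the 11 genes above the limit on both arrays of a group, and the 18 ADAMTS genes all lie below the band. Values of different probe sets do not rank the genes by amount of RNA.

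Few of these genes were called with EGF, at shares not far from those of all probe sets. With 2 arrays per group, a gene that was not called is not shown to be unchanged. Of the 62 members limma called 5 against the control (8.06%, against 11.9% of all probe sets), 2 higher (3.23%, against 6.61%) and 3 lower (4.84%, against 5.3%). The median difference over the 62 was −0.01, and over all probe sets −0.03. The arrays of the groups did not overlap for 30 members (48.4%, against 55.5% of all probe sets). Of the 11 members above the background limit, 1 was called, MMP13, against 23.5% of the probe sets above it (13.6% higher and 9.95% lower).

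A few more were called with gefitinib in the presence of EGF, as was so over all probe sets. Limma called 7 of 62 members between EGF plus gefitinib and EGF alone (11.3%, against 18.7% of all probe sets), 4 higher (6.45%, against 8.86%) and 3 lower (4.84%, against 9.81%). The arrays did not overlap for 32 members (51.6%, against 57.1%). MMP13, MMP2, MMP14 and ADAM23 were higher, and MMP1, ADAM8 and ADAMTS1 lower. Of the 11 above the limit, 3 were called higher and 1 lower, against 15.8% and 20.2% of the probe sets above it (36% in either direction). The 1 lower was MMP1, which lay above the limit on both arrays only in the EGF group, so its count among these is no support. Against the control, EGF plus gefitinib called 3 of 62 (4.84%, against 3.89%), MMP14 higher (1.61%, against 2.19%) and MMP10 and MMP12 lower (3.23%, against 1.7%). Of the 11 above the limit, 1 was called, against 7.61% of the probe sets above it (4.22% higher and 3.39% lower). The arrays did not overlap for 24 members (38.7%, against 50.4%). The comparisons share arrays, so a gene that is high or low in the EGF group moves in opposite directions in the first and second.

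**Figure D2:**
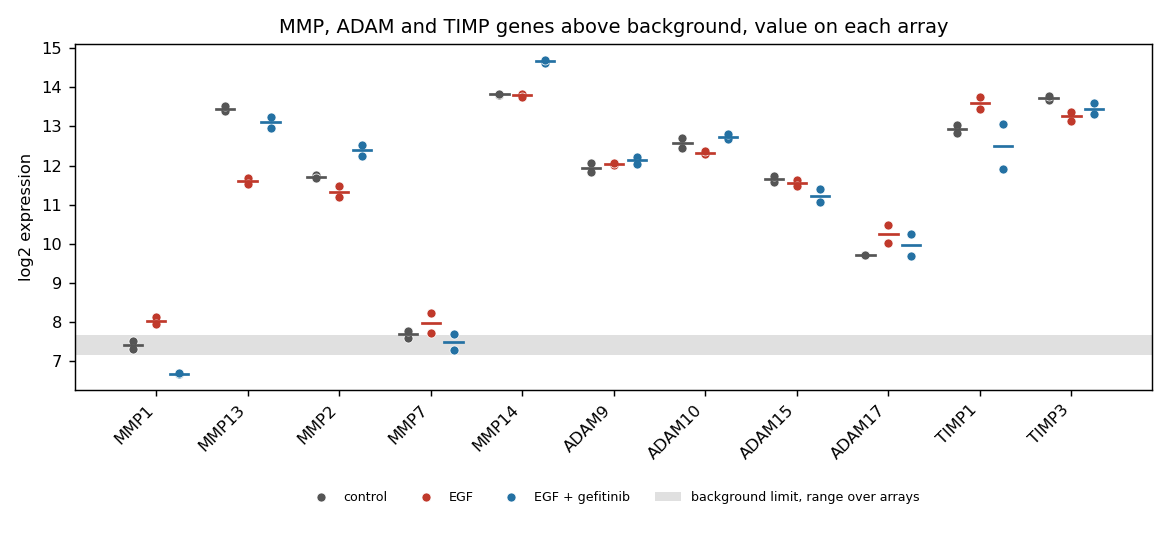
Log2 expression on each array (points) and the group mean (bar, n = 2) for the 11 genes above background, with the range of the background limits in grey. The EGF arrays of MMP13 lie at 11.53 and 11.69 and all its other arrays at 12.96 or higher, while MMP14 is raised only on the arrays with gefitinib.

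Of the collagenases, which open the triple helix of fibrillar collagens, MMP13 was called higher and MMP1 lower with gefitinib than with EGF alone, and MMP13 was called lower with EGF. MMP13, collagenase 3, measured 13.39 and 13.53 in the control, 11.69 and 11.53 with EGF, and 13.25 and 12.96 with EGF plus gefitinib. Both EGF arrays lay far below the other 4, and the arrays with gefitinib lay just below those of the control without overlap. MMP13 thus fell 3.61-fold with EGF (−1.85 ± 0.19, limma adjusted p = 0.00233) and was 2.82-fold higher with gefitinib than with EGF alone (1.49 ± 0.19, adjusted p = 0.00262). Both calls held without any 1 of the 6 arrays (−1.93 to −1.77 and 1.35 to 1.64). Between EGF plus gefitinib and the control the difference was −0.36 ± 0.19 (adjusted p = 0.343). Of the 8 fibroblast markers, LUM and DCN were also called lower with EGF (−1.34 ± 0.26 and −1.21 ± 0.19, adjusted p = 0.0194 and 0.00923), and none was called with gefitinib against EGF alone. LUM measured 9.44 and 9.53 in the control, 8.36 and 7.92 with EGF, and 8.77 and 8.15 with EGF plus gefitinib. DCN, below the limit, measured 6.27 and 6.48, 5.29 and 5.05, and 5.72 and 5.58 in that order. Their part in the MMP13 result was not tested.

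MMP1, the interstitial collagenase, lay near the background limit at 7.51 and 7.31 in the control, 8.10 and 7.93 with EGF, and 6.66 and 6.67 with EGF plus gefitinib. The 3 groups did not overlap, with EGF highest and gefitinib lowest. With gefitinib MMP1 was lower than with EGF alone by at least 1.46-fold (fitted difference −1.35 ± 0.18, limma adjusted p = 0.003), a bound because both gefitinib arrays lay below the limit. That call held without any 1 array (−1.44 to −1.27). Against the control, EGF plus gefitinib gave −0.74 ± 0.18 (adjusted p = 0.0703), which passed with a trended and robust prior (adjusted p = 0.0477). EGF against control gave 0.61 ± 0.18 and missed the threshold (adjusted p = 0.0743). MMP8, the neutrophil collagenase, stayed below the limit on all arrays, between 3.92 and 4.58.

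Of the gelatinases, which cut denatured collagen and type IV collagen, only MMP2 was above background. MMP2 measured 11.75 and 11.69 in the control, 11.19 and 11.48 with EGF, and 12.25 and 12.52 with EGF plus gefitinib. The groups did not overlap, with the gefitinib arrays highest. It was 2.08-fold higher with gefitinib than with EGF alone (1.06 ± 0.20, limma adjusted p = 0.0105), while EGF against control gave −0.38 ± 0.20 (adjusted p = 0.273). The gefitinib call was lost without EGF 1 (0.91, adjusted p = 0.0751) or without EGF plus gefitinib 2 (0.92, adjusted p = 0.054). EGF plus gefitinib against control gave 0.67 ± 0.20 (adjusted p = 0.107), which passed with a trended and robust prior (adjusted p = 0.00552) and among probe sets above the limit (adjusted p = 0.0198). MMP9 lay well below the limit at 4.72 and 4.36, 4.68 and 4.32, and 4.68 and 4.33 in the control, EGF and EGF plus gefitinib groups.

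The membrane-type MMPs are anchored at the cell surface, and MMP14, the best known of them, activates the precursors of MMP2 and MMP13. MMP14 measured 13.80 and 13.84 in the control, 13.84 and 13.76 with EGF, and 14.62 and 14.71 with EGF plus gefitinib. Control and EGF arrays overlapped, and both gefitinib arrays lay above them. MMP14 was 1.82-fold higher with gefitinib than with EGF alone (0.87 ± 0.17, limma adjusted p = 0.0128) and 1.79-fold higher than in the control (0.84 ± 0.17, adjusted p = 0.044). EGF alone gave −0.02 ± 0.17 (adjusted p = 0.953), and 0.03 when each array was centred on its median. The first call was lost without EGF 1 (0.90, adjusted p = 0.0638), EGF 2 (0.83, adjusted p = 0.0801) or EGF plus gefitinib 2 (0.82, adjusted p = 0.0525). The call against the control was lost without any 1 of the 6 arrays (0.80 to 0.89, adjusted p = 0.088 to 0.194). The other 5 membrane-type MMPs (MMP15, MMP16, MMP17, MMP24 and MMP25) lay below the limit and were not called.

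**Figure D3:**
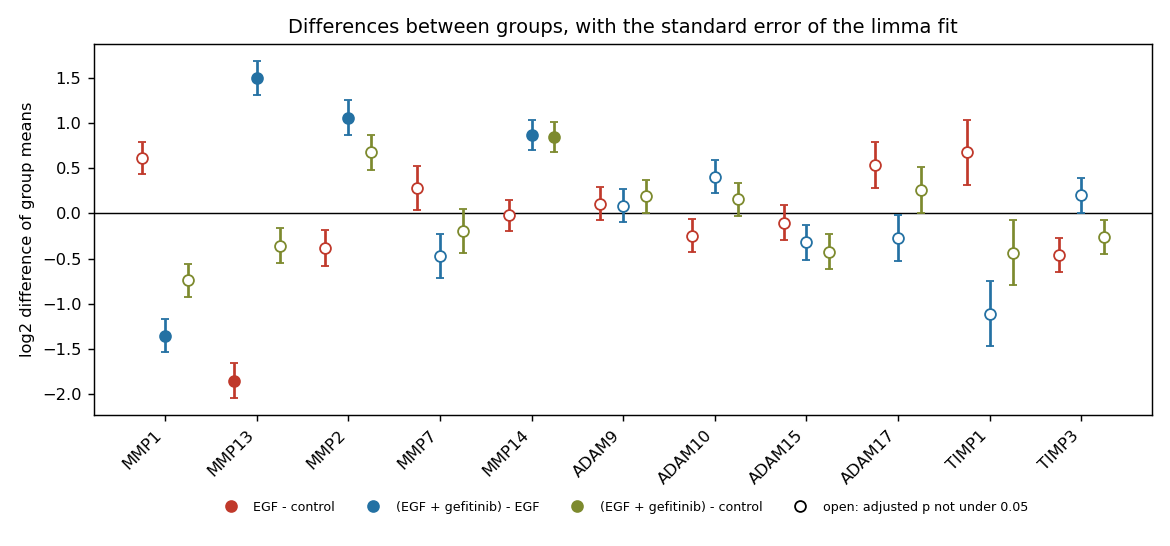
Log2 differences between group means for the 11 genes above background, each bar showing 1 standard error from limma (n = 2 arrays in each group). Filled points passed an adjusted p of 0.05. MMP13 is the only one filled for EGF against control, and MMP14 the only one filled for EGF plus gefitinib against control.

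In RefSeq's gene order, 9 members stand side by side on human chromosome 11, with no other protein-coding gene between the first, MMP7, and the last, MMP13. With EGF, MMP10, MMP12 and MMP13 were called lower and none of the 9 was called higher. Only MMP1, MMP7 and MMP13 lay above the limit on both arrays of a group, so a shared movement of all 9 could not be judged. Of these neighbours MMP13 fell with EGF, MMP1 lay higher without passing the test, and MMP7, matrilysin, overlapped the control at 8.21 and 7.70 against 7.59 and 7.76 (0.28 ± 0.24, limma adjusted p = 0.536). With EGF plus gefitinib MMP7 measured 7.69 and 7.27, and its difference from EGF alone was −0.47 ± 0.24 (adjusted p = 0.241).

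MMP12, the macrophage elastase, was lower with EGF although every array lay below the background limit. It measured 5.95 and 6.002 in the control, 4.62 and 4.36 with EGF, and 4.70 and 4.75 with EGF plus gefitinib. Both treated groups lay under the control without overlap. The fitted differences from the control, which are not sizes of change at this brightness, were −1.49 ± 0.18 for EGF (limma adjusted p = 0.00392) and −1.25 ± 0.18 for EGF plus gefitinib (adjusted p = 0.0195). The first held without any 1 array (−1.62 to −1.36). The second was lost without control 1, control 2, EGF plus gefitinib 1 or EGF plus gefitinib 2 (adjusted p = 0.0671 to 0.12). Unlike MMP13, MMP12 did not differ between the treated groups beyond the threshold (0.24 ± 0.18, adjusted p = 0.427).

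MMP10, stromelysin 2, measured 6.52 and 6.48 in the control, 5.82 and 5.58 with EGF, and 5.22 and 4.81 with EGF plus gefitinib, all below the limit. The groups did not overlap and stood in that order. Against the control its fitted differences were −0.80 ± 0.21 for EGF (limma adjusted p = 0.0492) and −1.48 ± 0.21 for EGF plus gefitinib (adjusted p = 0.0175). The EGF call was lost after quantile normalization (adjusted p = 0.0661), median centring (0.0585) or a trended and robust prior (0.0534), and without control 1, control 2, EGF 1 or EGF 2 (adjusted p = 0.126 to 0.224). The other was lost without control 1, control 2, EGF plus gefitinib 1 or EGF plus gefitinib 2 (adjusted p = 0.0504 to 0.112). EGF plus gefitinib against EGF alone gave −0.68 ± 0.21 (adjusted p = 0.0626), which passed after quantile normalization (−0.78, adjusted p = 0.0417). MMP3, MMP8, MMP20 and MMP27 lay between 3.14 and 5.32 on all arrays and were not called.

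**Figure D4:**
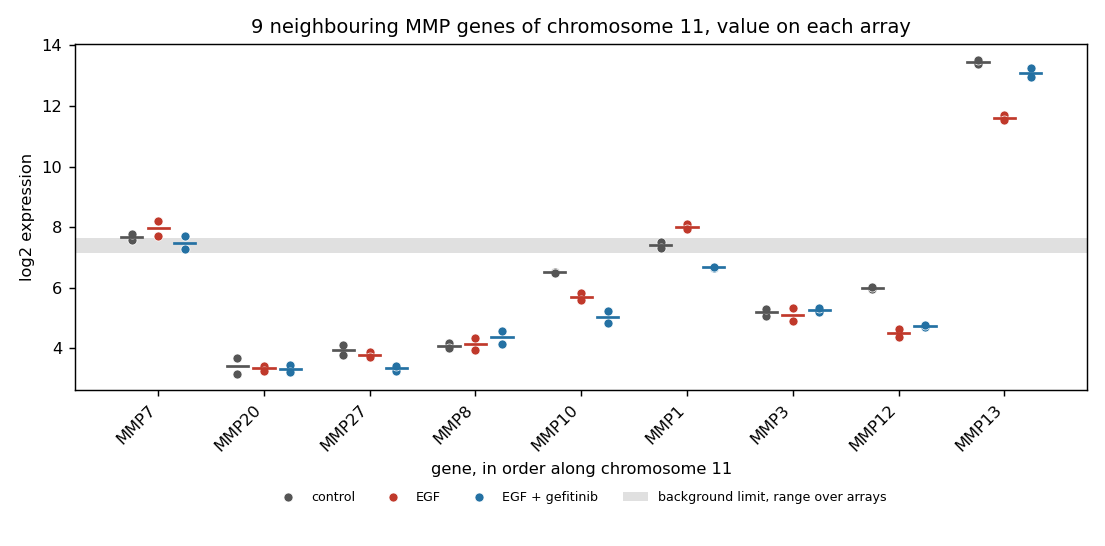
Log2 expression on each array (points) and group means (bars, n = 2) of the 9 neighbouring MMP genes, drawn in their order along chromosome 11 without distances. The grey band is the range of background limits, and MMP13 alone lies above it on all 6 arrays.

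RefSeq's promoter table (GRCh38.p14) matched 37 of the 62 members, MMP7, MMP10 and MMP14 among them, with 38 promoters, since ADAMTS10 has 2. The other 25, MMP1, MMP2, MMP12 and MMP13 among them, had no entry and were not searched. The 250 bases before each start were searched on both strands for the AP-1 motif TGANTCA, which reads the same on both strands, for the ETS core GGAA, and on the gene's strand for TATAAA. The AP-1 motif stood in 4 of the 38 promoters (10.5%, against 6.57% of all 35116 promoters), those of MMP7, MMP10, MMP20 and ADAMTS12. GGAA stood in 36 of 38 (94.7%, against 92.7% of all), and TATAAA in 6 of 38 (15.8%, against 6.8%). In the neighbours MMP7 and MMP10 the AP-1 motif began at the same distance, 67 bases before the start, with TATAAA 30 and 31 bases before it. The last 100 bases before the start are shown for both, since their layout is alike while MMP10 was called with EGF and MMP7 was not. That MMP10 call was marginal (limma adjusted p = 0.0492), with all arrays below the limit, and was lost in several alternatives. The last 100 bases are also shown for MMP14, which was called in both gefitinib comparisons and holds neither motif in this window. Capitals mark TGANTCA and TATAAA, and all are written 5′ to 3′ on the gene's strand, for MMP7 at chr11:102530748-102530847 (minus strand), MMP10 at chr11:102780629-102780728 (minus strand) and MMP14 at chr14:22836485-22836584 (plus strand).
MMP7: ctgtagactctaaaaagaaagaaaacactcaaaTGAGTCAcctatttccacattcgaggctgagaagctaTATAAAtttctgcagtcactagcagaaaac
MMP10: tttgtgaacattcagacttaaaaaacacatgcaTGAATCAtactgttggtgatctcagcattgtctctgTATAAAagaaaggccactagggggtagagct
MMP14: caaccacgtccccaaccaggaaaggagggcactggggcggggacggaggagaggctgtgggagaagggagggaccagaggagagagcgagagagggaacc
A match of letters is a description of the sequence and shows no binding.

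None of the ADAM sheddases above background was called. ADAM17, the main releasing enzyme of TGF-alpha and other EGFR ligands, measured 9.70 and 9.72 in the control, 10.02 and 10.47 with EGF, and 9.68 and 10.25 with EGF plus gefitinib. The EGF arrays lay above the control, but the gefitinib arrays overlapped both groups. EGF against control gave 0.53 ± 0.25 (limma adjusted p = 0.24) and gefitinib against EGF alone −0.27 ± 0.25 (adjusted p = 0.523).

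ADAM10, which releases Notch, betacellulin and EGF, measured 12.71 and 12.45 in the control, 12.30 and 12.36 with EGF, and 12.67 and 12.80 with EGF plus gefitinib. The EGF arrays were the lowest. EGF plus gefitinib against EGF alone gave 0.40 ± 0.18 (limma adjusted p = 0.185), which passed with a trended and robust prior (adjusted p = 0.0258) and among probe sets above the limit (adjusted p = 0.0482). EGF against control gave −0.25 ± 0.18 (adjusted p = 0.458).

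ADAM9, another membrane-anchored protease, measured 12.06 and 11.82, 12.03 and 12.06, and 12.21 and 12.04 in the control, EGF and EGF plus gefitinib groups. All 3 groups overlapped, with differences of 0.08 to 0.19 (each ± 0.18, limma adjusted p = 0.614 to 0.804). ADAM15 measured 11.58 and 11.73, 11.63 and 11.47, and 11.39 and 11.07 in the same order. Its gefitinib arrays were the lowest, at −0.42 ± 0.19 against the control (adjusted p = 0.273) and −0.32 ± 0.19 against EGF (adjusted p = 0.318).

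Among the 15 ADAMs below the limit, ADAM8 and ADAM23 were called. ADAM8, a protease best known from leukocytes, measured 5.51 and 5.05 in the control, 6.66 and 6.502 with EGF, and 5.77 and 5.15 with EGF plus gefitinib. It was higher with EGF than in the control (fitted 1.30 ± 0.26, limma adjusted p = 0.0227) and lower with gefitinib than with EGF alone (−1.12 ± 0.26, adjusted p = 0.0265). The first call was lost without control 1, control 2, EGF 1 or EGF 2 (1.07 to 1.53), and the second without EGF 1, EGF 2 or EGF plus gefitinib 2 (−1.19 to −0.81). No leukocyte marker lay above the limit on both arrays of a group, and the 8 measured summed to 288 and 305 in the control, to no more than 253 with EGF, and to 256 and 229 with EGF plus gefitinib. The part of these cells in the ADAM8 result was not tested.

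ADAM23, which lacks a catalytic zinc site and binds integrins, measured 3.91 and 3.61, 2.97 and 2.82, and 4.64 and 3.81 in the control, EGF and EGF plus gefitinib groups. It was higher with gefitinib than with EGF alone (fitted 1.34 ± 0.29, limma adjusted p = 0.0186). The call was lost without EGF 1 (1.41), EGF 2 (1.26) or EGF plus gefitinib 1 (0.92), and these values lie deep within the range of the negative controls. The 13 other ADAMs below the limit were not called in any comparison.

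Of the 18 ADAMTS genes only ADAMTS1, which cuts the proteoglycans aggrecan and versican, was called. It measured 3.82 and 4.69 in the control, 6.66 and 6.17 with EGF, and 4.87 and 3.25 with EGF plus gefitinib, all below the limit. Both EGF arrays lay above the other 4, which spread widely. Its fitted differences were 2.15 ± 0.53 for EGF against control (limma adjusted p = 0.0409) and −2.35 ± 0.53 for gefitinib against EGF alone (adjusted p = 0.0215). The first was lost without control 1, control 2, EGF 1 or EGF 2 (1.72 to 2.59, adjusted p = 0.0756 to 0.183). The second was lost without EGF 1 (−2.11), EGF 2 (−2.60) or EGF plus gefitinib 2 (−1.55). The 18 genes had a median difference of 0.13 for EGF and 0.06 for gefitinib against EGF alone, and none of the 7 proteoglycan-cleaving, 3 procollagen and 8 other members besides ADAMTS1 was called.

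No TIMP was called. TIMP1, the main soluble inhibitor of MMPs, measured 13.03 and 12.82 in the control, 13.44 and 13.76 with EGF, and 13.07 and 11.92 with EGF plus gefitinib. The EGF arrays lay above all others, and the 2 gefitinib arrays stood far apart (SD 0.81, the widest of the 11 genes above background). EGF gave 0.67 ± 0.36 (limma adjusted p = 0.291) and gefitinib against EGF alone −1.11 ± 0.36 (adjusted p = 0.0749). That value was −1.68 without EGF plus gefitinib 1 and −0.54 without EGF plus gefitinib 2, so its size depends on which of these arrays is kept. With all 6 arrays it passed with a trended and robust prior and among probe sets above the limit (limma adjusted p = 0.0236 for the latter).

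TIMP3, which is bound to the matrix and also inhibits ADAM17, measured 13.67 and 13.77 in the control, 13.37 and 13.15 with EGF, and 13.60 and 13.32 with EGF plus gefitinib. Its control arrays were the highest. EGF gave −0.46 ± 0.19 (limma adjusted p = 0.181), which passed with a trended and robust prior (adjusted p = 0.0117) and among probe sets above the limit (adjusted p = 0.0457). TIMP4 lay below the limit, between 5.47 and 5.99.

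Among genes that switch these proteases on or hold them in check, the largest EGF changes were in the urokinase system and FURIN. Of 11 measured genes of other inhibitors, inducers and activators, limma called 3 higher and 1 lower with EGF (against 6.61% and 5.3% of all probe sets), and 2 higher and 2 lower with gefitinib against EGF alone (against 8.86% and 9.81%). FURIN, a convertase that removes the inhibitory domain of ADAMs and membrane-type MMPs, measured 7.22 and 7.12 in the control, 8.78 and 9.01 with EGF, and 7.14 and 7.10 with EGF plus gefitinib. Only the EGF arrays stood clearly above background. FURIN rose by 1.72 ± 0.18 with EGF (adjusted p = 0.00237) and was lower with gefitinib than with EGF by at least 2.68-fold (adjusted p = 0.00115).

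Urokinase, PLAU, which generates the plasmin that activates MMP precursors, measured 11.48 and 11.50, 13.60 and 13.72, and 13.07 and 13.33 in the control, EGF and EGF plus gefitinib groups. It was higher than the control in both treated groups (2.17 ± 0.18 and 1.71 ± 0.18, limma adjusted p = 0.00121 and 0.00963). Its receptor PLAUR rose by 2.95 ± 0.24 with EGF and was lower by 2.16 with gefitinib than with EGF alone. LCN2, which binds and stabilises MMP9, fell by 1.38 ± 0.26 with EGF (adjusted p = 0.0171).

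SPOCK1, a testican that can inhibit membrane-type MMPs, is named after its values were seen, since it had the largest gefitinib change of this list. It measured 8.37 and 8.20 in the control, 7.78 and 7.32 with EGF, and 10.30 and 9.99 with EGF plus gefitinib. Both gefitinib arrays lay above all others. The difference from EGF alone was 2.60 ± 0.23 (limma adjusted p = 0.000726) and from the control 1.86 ± 0.23 (adjusted p = 0.0143).

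The carriers that bring ADAM17 and ADAM10 to the cell surface are the iRhoms and a set of tetraspanins. FRMD8, which is neither, was listed with them and was not called. Of the 9 measured genes of this list, 1 rose with EGF (against 6.61% of all probe sets). With gefitinib 3 were lower than with EGF alone (against 9.81%). TSPAN5, a partner of ADAM10, measured 11.14 and 11.17 in the control, 12.67 and 12.76 with EGF, and 10.18 and 11.03 with EGF plus gefitinib. It rose 2.95-fold with EGF (1.56 ± 0.28, limma adjusted p = 0.0147) and was 4.33-fold lower with gefitinib than with EGF alone (adjusted p = 0.00295), while ADAM10 itself was not called. TSPAN17, another such partner, measured 7.76 and 7.59, 8.76 and 8.55, and 7.26 and 6.07 in the control, EGF and EGF plus gefitinib groups. With gefitinib it was lower than with EGF by at least 2.27-fold (adjusted p = 0.00975), and EGF against control gave 0.98 ± 0.36 (adjusted p = 0.138). The third carrier lower with gefitinib was TSPAN14 (−0.68 ± 0.18, adjusted p = 0.0388), named after its values were seen. TSPAN15 and TSPAN33 were not called for EGF (−0.48 ± 0.20 and −0.83 ± 0.28), and TSPAN33, below the limit on all arrays, was called lower with EGF plus gefitinib than in the control (−1.37 ± 0.28, adjusted p = 0.0442).

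Among the EGFR and ERBB ligands that ADAMs release, 4 of 7 measured rose with EGF (against 6.61% of all probe sets), and the same count was lower with gefitinib than with EGF alone (against 9.81%). HBEGF measured 6.70 and 6.71 in the control, 9.11 and 9.09 with EGF, and 7.96 and 7.80 with EGF plus gefitinib. It rose at least 3.51-fold with EGF, and it was 2.33-fold lower with gefitinib than with EGF alone. TGFA rose by 1.37 ± 0.25, NRG1 by 1.28 ± 0.18 and EREG by at least 3.73-fold (limma adjusted p = 0.016, 0.0058 and 0.000325). Neither ADAM17 nor ADAM10 passed the test in the same comparison.

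**Figure D5:**
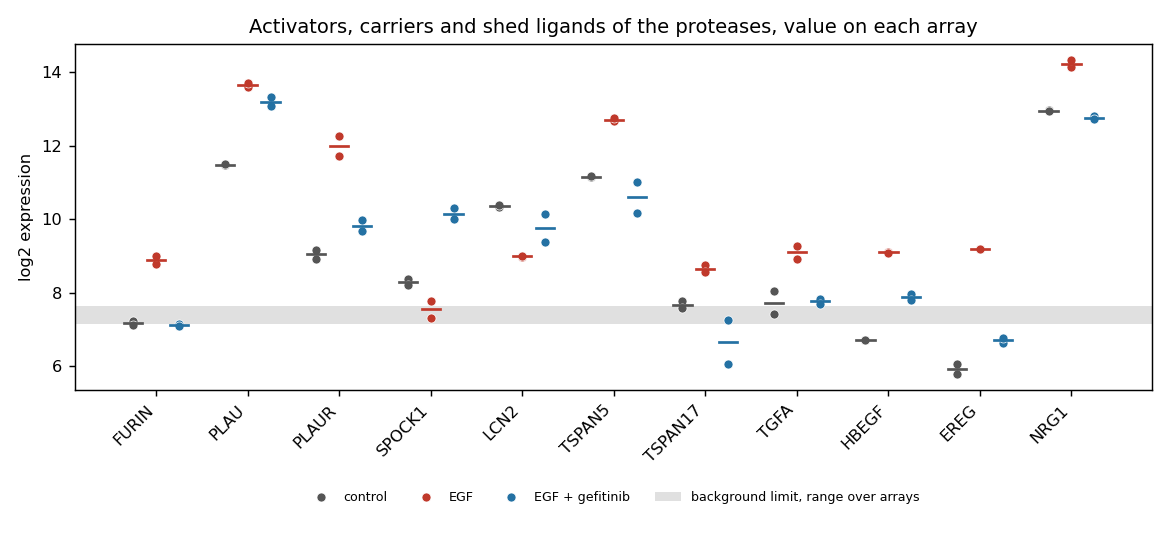
Log2 expression on each array (points) and group means (bars, n = 2) of activators (FURIN, PLAU, PLAUR), inhibitors and binding partners (SPOCK1, LCN2), ADAM10 carriers (TSPAN5, TSPAN17) and ligands that ADAMs release. The grey band is the range of background limits. All except SPOCK1 and LCN2 are highest in the EGF group.

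AP-1 and ETS factors, which bind many MMP promoters, split. Of 12 measured, 4 rose and 2 fell with EGF (against 6.61% and 5.3% of all probe sets), and 4 were higher and 3 lower with gefitinib than with EGF alone (against 8.86% and 9.81%). FOSL1, JUN, ETS1 and ELK3 rose by 4.01 ± 0.24, 1.81 ± 0.22, 1.65 ± 0.21 and 1.51 ± 0.18. Of these JUN was not lower with gefitinib than with EGF alone (0.74 ± 0.22, limma adjusted p = 0.0553). It was higher than in the control by 2.55 ± 0.22 (adjusted p = 0.0069). Named after their values were seen, JUND and FOSB were called lower with EGF, by at least 1.96-fold and 1.13-fold. JUND, ETV5, FOSL2 and FOS were called higher with gefitinib than with EGF alone. JUND was higher by at least 4.34-fold, ETV5 by at least 2.61-fold and FOSL2 1.72-fold, while FOS lay below the limit on every array.

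Of 11 matrix and surface substrates measured, 1 was called higher with EGF (against 6.61% of all probe sets) and 1 lower with gefitinib than with EGF alone (against 9.81%), shares near those of all probe sets. CD44, a hyaluronan receptor that MMP14 and ADAM10 cut, rose by 0.83 ± 0.18 with EGF (limma adjusted p = 0.0286). The syndecan SDC1, named after its values were seen, was the one lower with gefitinib than with EGF alone (−1.04 ± 0.19, adjusted p = 0.00963). With EGF plus gefitinib it was also called lower than in the control (−1.10 ± 0.19, limma adjusted p = 0.0307). EGF against control gave −0.06 ± 0.19 for SDC1. COL4A2, FN1 and CDH1 gave 0.57 ± 0.18, 0.49 ± 0.18 and 0.32 ± 0.19 with EGF and were not called. The ADAMTS-like proteins, which resemble ADAMTS proteases but lack the protease part, had 0 of 7 measured called by limma in any comparison. Of all probe sets, 11.9% were called for EGF against control, 18.7% for gefitinib against EGF alone and 3.89% for EGF plus gefitinib against control. At an unadjusted p under 0.05 by limma, 1 of the 7 was higher and 2 lower with EGF, against 2953 and 2724 of all 21448 probe sets. ADAMTSL5 measured 8.89 and 8.96 in the control and 8.45 and 8.40 with EGF, and ADAMTSL3, ADAMTSL2 and THSD4 gave −0.81 ± 0.24, −0.25 ± 0.21 and 1.04 ± 0.41 for EGF against control.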

How the data were processed

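RNA was labelled with the WT PLUS kit, 1 array per sample, per the labels. The authors deposited log2 values from the software Transcriptome Analysis Console, which the submitters' processing notes name. No source used here gives its version, background correction or normalization. The values' range shows the log2 scale. These were used as deposited. Control probe sets (2903) were left out, and 21448 transcript probe sets were tested with no filter. The platform annotation named 17709 of them, and 0 symbols changed against RefSeq.

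All 6 arrays entered 1 limma 3.58.1 fit (lmFit, eBayes; R 4.3.3; labels read with jsonlite 2.0.0) with 3 group means, 3 residual and 4.22 prior degrees of freedom, tested on simulated data. Tests were two-sided. Folds are 2 to the log2 difference. Where a group lay below the background limit on both arrays, the fold was taken against that limit and is written "at least". The number of arrays limits the precision.

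Every member could be named. The rule asked for array values of members called and above background, and of TIMPs, MMP1, MMP9, MMP10, MMP14, ADAM10, ADAM17 and ADAMTS1. Those of MMP7, MMP12, ADAM8, ADAM9, ADAM15 and ADAM23 are given beyond this rule, and TIMP4 is given by its range. Up to 4 genes of each other list were named by the moderated statistic for EGF. Members, lists and rules were chosen with earlier results of these data known. Alternatives were quantile and median scaling, a filter, 2-group fits, a trended robust prior, a replicate block, gene means, leaving out each array and the 99th percentile as background limit.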

Additional observations from a re-analysis of the deposited data

How the results depend on the processing

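The limits are the 2 arrays per group and the brightness of the genes: 51 of 62 members lie below background on every array, and 5 of the 9 called in any comparison are among these. With the 99th percentile as limit, 8 members instead of 11 lay above it. Of the 11, MMP13 (both calls) and MMP1 (gefitinib against EGF alone) kept their calls in all alternatives run. The filter is no support for the MMP1 call, since MMP1 entered the filtered set through its EGF arrays alone. Members higher with EGF numbered 2, but 1 among probe sets above the limit (MMP1, which entered that set through its EGF arrays alone, so this call is no support), 1 with the replicate block (ADAM8) and 0 to 2 with single arrays left out (4 to 7 at an unadjusted p under 0.05, limma). Members higher and lower with gefitinib than with EGF alone numbered 4 and 3, and 1 to 4 for each with single arrays left out. Against the control, EGF plus gefitinib called 1 higher, but 2 among probe sets above the limit, 2 with the trended robust prior, 0 with the replicate block, 0 with only both groups compared, and 0 whichever array was left out (4 at an unadjusted p under 0.05 by limma in each). It called 2 lower, but 1 among probe sets above the limit (MMP1 again) and 0 to 2 with single arrays left out (4 to 6 at an unadjusted p under 0.05). Over all probe sets, leaving out any 1 array also gave fewer calls for EGF against control and for gefitinib against EGF alone. The filter gave more in these 2 comparisons, 3984 and 4894, where the main fit gave 2554 and 4005. The cause of these shifts was not tested, except that a filter tests fewer probe sets and leaving out an array leaves fewer samples.

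Replicate numbers did not pair the arrays: deviations from the group means of same-numbered arrays correlated at −0.04, 0.02 and −0.004. The replicate block lost the calls of ADAMTS1 and MMP10 for EGF (adjusted p = 0.0576 and 0.0553) and of MMP14 against the control (adjusted p = 0.08), and called 2040, 3489 and 333 probe sets in all where the fit without it called 2554, 4005 and 834.

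Over the single genes' differences and all alternatives, 595 values kept their direction and their side of the threshold, 47 lost a call, 17 gained one and 22 changed sign. Directions turned only for differences that were not called. Centring turned MMP14 for EGF to 0.033, and MMP9 to 0.015 for EGF and −0.066 for gefitinib against EGF alone; quantile normalization gave MMP9 0.0087 and −0.072. With single arrays left out, EGF against control ran from −0.011 to 0.22 for ADAM9, −0.061 to 0.015 for MMP14 and −0.22 to 0.14 for MMP9. EGF plus gefitinib against EGF ran from −0.56 to 0.013 for ADAM17, −0.00065 to 0.17 for ADAM9 and −0.18 to 0.19 for MMP9. Against control it ran from −0.030 to 0.54 for ADAM17, −0.13 to 0.49 for ADAM8, −1.002 to 0.61 for ADAMTS1, −0.40 to 0.014 for MMP7, −0.22 to 0.15 for MMP9 and −1.01 to 0.14 for TIMP1. The cause was not tested.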
